A study of Mus musculus with 24 samples.

Results

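Cell cycle and DNA replication genes were followed in cultured primary osteoblasts (OBs) of the mouse. The set was 38 genes taken by their symbol from the 55335 genes counted in each library, and it covered mitosis (18 genes), DNA replication (12 genes), the passage from G1 into S phase (4 genes), *Rcc2* and 3 inhibitors of cyclin-dependent kinases (CDKs). The choice of genes used no measured value, but it was made with earlier results of these data known.

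The OBs were extracted from parietal bone of pups in their first week after birth, on the C57BL/6J background. One group was wild type (WT). The other (Het) had 1 mutant allele of *Col1a2* (Col1a2tm1Mcbr), whose product, the α2(I) chain of procollagen, carries cysteine in place of a glycine in its triple helix. Bulk RNASeq was done on 24 libraries, 4 for each genotype at day 8, day 14 and day 21 of culture, and every culture of both genotypes was under osteogenic differentiation when sampled. Pups of a genotype were pooled for plating, so the libraries come from wells of pooled cultures and not from single animals. Within a culture experiment, a difference between genotypes cannot be told apart from one between their pools. The study describes fewer wells per genotype and day than the libraries listed here, and the sources do not say whether each library is a well of its own, so n counts libraries and p-values measure the spread between libraries, which may be technical in part. The study describes a pair of culture experiments with different litters, oxygen and density of plating, and the labels do not say which replicate number belongs to which. In 1 of these experiments the cells were first expanded at lowered oxygen, which by the study's account favours proliferation and holds back differentiation. Replicate 1 is therefore given beside replicates 2 to 4 below: its 6 libraries held 17140202 to 25825762 counts and the other 18 held 28159342 to 59734231. Each of the 38 genes had at least 126 counts in every library, together they took 0.228% to 0.464% of a library's counts, and all 38 passed the filter on low counts that left 20287 genes for testing.

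A dividing cell copies its DNA in S phase and separates the copies in mitosis, and CDKs bound to their cyclins drive both steps. Transcripts for replication proteins are made mainly around the start of S phase under the E2F transcription factors. Those for mitosis are made later, through G2, under MYBL2 and FOXM1. OB precursors proliferate in early culture, and maturing OBs that deposit and mineralize matrix mostly leave the cell cycle, with CDK inhibitors such as p21 and p27 among the brakes.

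Levels are given as relative quantity (RQ), the count of a gene over the geometric mean count of 4 housekeeping genes in that library (*Sdha*, *Mrfap1*, *Actb* and *Actg1*). RQ compares one gene between libraries. Levels of different genes were compared only per kilobase of exon. On the scale of mean RQ per kilobase in the 4 WT libraries of day 8, the highest levels among the 38 were those of *Ccnd1* (0.217), *Cdkn1a* (0.147), *Pcna* (0.0898), *Rrm2* (0.0860) and *Cdc20* (0.0823), and the lowest were those of *Cdc6* (0.00650) and *Cdt1* (0.0103). *Rcc2* stood between them at 0.0557, near *Mki67* at 0.0467. In a bulk library, fewer cycling cells and less RNA per cycling cell cannot be told apart. Fold changes and adjusted p-values below are from edgeR's quasi-likelihood test across all genes with Benjamini-Hochberg adjustment, and a gene is said to have risen or fallen only when its adjusted p was under 0.05.

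**Figure D1:**
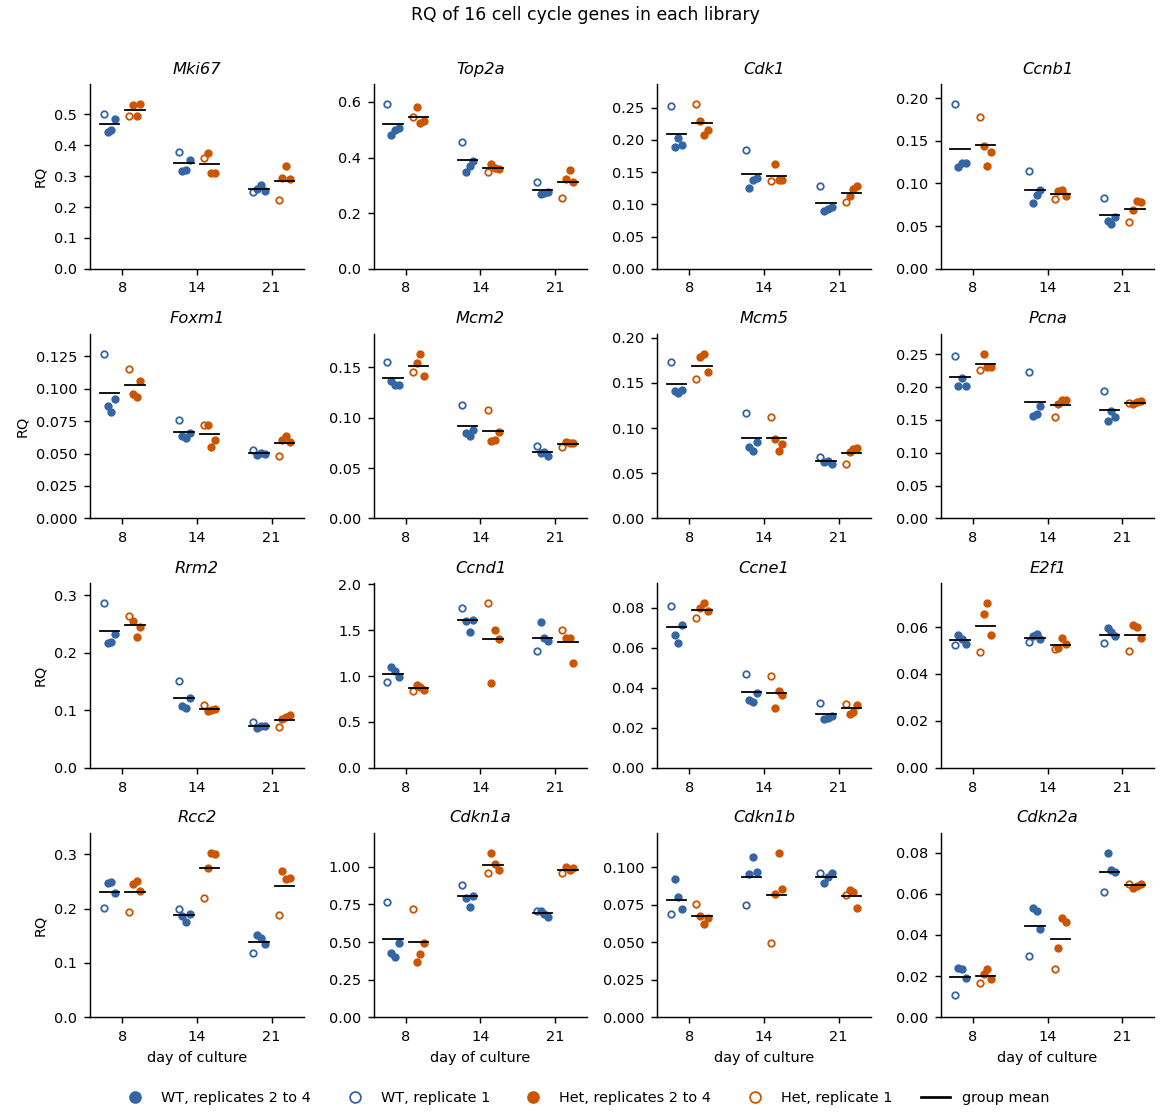
RQ (vertical axes, linear, from 0) of 16 of the genes against day of culture (horizontal axes), 1 point for each library. Blue points are WT and orange points Het, open points are replicate 1, and the black bar is the mean of 4 libraries. The mitosis and replication genes stood highest at day 8, *Cdkn2a* was highest at day 21, and at days 14 and 21 the Het libraries of *Rcc2* and *Cdkn1a* lay above the WT libraries of the same day.

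The first question was how these genes moved as the cultures matured, with both genotypes together (8 libraries a day). From day 8 to day 14, 32 of the 38 genes fell and 3 rose, against 13.6% of all tested genes that fell and 34.3% that rose. The median change of the 38 on the log2 scale was −0.58, beside a median of 0.124 over all genes. With TMM scaling the median of all genes was 0.00453, and 33 of the 38 fell and 3 rose (background 24.4% and 25.7%). All 18 mitosis genes and all 12 replication genes were among those that fell.

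*Mki67*, which encodes the proliferation marker Ki-67 that coats mitotic chromosomes (chr7:135689784-135716361, GRCm38), shows the pattern of the mitosis genes. In WT OBs the *Mki67* RQ was 0.500, 0.444, 0.449 and 0.484 in replicates 1 to 4 at day 8, 0.377, 0.316, 0.321 and 0.351 at day 14 and 0.249, 0.258, 0.272 and 0.253 at day 21. In Het OBs it was 0.493, 0.531, 0.495 and 0.533 at day 8, 0.360, 0.375, 0.310 and 0.310 at day 14 and 0.221, 0.293, 0.334 and 0.291 at day 21. Every library of day 8 was above every library of day 14, and days 14 and 21 overlapped only through Het replicate 3 of day 21. The change was −0.53 ± 0.068 (log2 ± SE) from day 8 to day 14 (adjusted p = 1.3e-06).

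*Top2a* encodes topoisomerase IIα, which untangles sister chromatids. Its RQ in WT OBs was 0.592, 0.482, 0.500 and 0.505 at day 8, 0.456, 0.347, 0.369 and 0.386 at day 14 and 0.311, 0.269, 0.274 and 0.277 at day 21. The *Top2a* RQ in Het OBs was 0.546, 0.582, 0.524 and 0.531, then 0.347, 0.378, 0.364 and 0.360, then 0.253, 0.321, 0.355 and 0.314. No library of day 14 reached those of day 8, and Het replicate 3 of day 21 was above the lowest libraries of day 14.

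*Cdk1* (the mitotic CDK) and *Ccnb1* (cyclin B1, its partner) were followed as a pair. For *Cdk1*, the WT libraries held an RQ of 0.253, 0.188, 0.204 and 0.193 at day 8, 0.185, 0.126, 0.137 and 0.141 at day 14 and 0.129, 0.0905, 0.0925 and 0.0966 at day 21. The Het libraries held a *Cdk1* RQ of 0.255, 0.229, 0.207 and 0.216, 0.136, 0.163, 0.138 and 0.138 and 0.104, 0.113, 0.124 and 0.129 at the same days. In WT, replicate 1 was the highest library at each day. For *Ccnb1*, the WT values were 0.193, 0.120, 0.124 and 0.124 at day 8, 0.114, 0.0777, 0.0868 and 0.0918 at day 14 and 0.0829, 0.0566, 0.0521 and 0.0608 at day 21. The Het values of *Ccnb1* were 0.178, 0.144, 0.120 and 0.137, 0.0818, 0.0912, 0.0926 and 0.0853 and 0.0550, 0.0685, 0.0799 and 0.0789. Replicate 1 of WT was again the highest at each day, and days 8 and 14 did not overlap for either gene.

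*Foxm1*, the transcription factor of G2 and mitosis genes, had RQ values of 0.127, 0.0868, 0.0818 and 0.0922 in WT OBs and 0.115, 0.0955, 0.0933 and 0.106 in Het OBs at day 8. At day 14 the *Foxm1* values were 0.0760, 0.0633, 0.0617 and 0.0657 in WT OBs and 0.0720, 0.0718, 0.0550 and 0.0604 in Het OBs, and at day 21 0.0525, 0.0489, 0.0507 and 0.0496 in WT OBs and 0.0482, 0.0602, 0.0637 and 0.0593 in Het OBs. The level fell without overlap to day 14 and overlapped between days 14 and 21. Across the 18 mitosis genes the change from day 8 to day 14 ran from −0.85 for *Plk1*, a kinase of mitotic entry, to −0.36 for *Ccnb2*, cyclin B2, with a median of −0.62. *Aurka* and *Aurkb*, the Aurora kinases of spindle and centromere, fell by 0.80 and 0.74 on the log2 scale, *Cenpe*, a kinetochore motor, by 0.72, and *Bub1*, a spindle checkpoint kinase, by 0.69.

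The replication genes included the largest fall of the set. *Rrm2* encodes the regulated subunit of ribonucleotide reductase, which supplies deoxynucleotides (chr12:24708241-24714146, GRCm38). Its RQ in WT was 0.286, 0.217, 0.218 and 0.232 at day 8, 0.151, 0.107, 0.104 and 0.121 at day 14 and 0.0804, 0.0688, 0.0732 and 0.0719 at day 21. In Het OBs the *Rrm2* RQ was 0.263, 0.254, 0.227 and 0.245, 0.109, 0.0983, 0.101 and 0.102 and 0.0718, 0.0840, 0.0877 and 0.0923. The 3 days did not overlap at all: day 8 lay above day 14, and day 14 above day 21. The mean over both genotypes was 0.243 ± 0.0240 (SD, n = 8) at day 8 and 0.112 ± 0.0175 at day 14, a log2 change of −1.12 ± 0.076 (adjusted p = 1.34e-10), and 0.0788 ± 0.00863 at day 21.

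*Mcm2* and *Mcm5* encode subunits of the MCM helicase that opens the DNA at replication origins. For *Mcm2* the WT values were 0.155, 0.136, 0.133 and 0.132 at day 8, 0.113, 0.0846, 0.0824 and 0.0875 at day 14 and 0.0724, 0.0653, 0.0658 and 0.0619 at day 21. The Het values of *Mcm2* were 0.145, 0.155, 0.164 and 0.141, 0.107, 0.0766, 0.0782 and 0.0857 and 0.0709, 0.0764, 0.0747 and 0.0748. As for *Rrm2*, the libraries of the 3 days did not overlap. For *Mcm5* the WT values were 0.173, 0.141, 0.139 and 0.142, 0.117, 0.0791, 0.0747 and 0.0842 and 0.0684, 0.0629, 0.0634 and 0.0606 at days 8, 14 and 21. The Het values of *Mcm5* were 0.154, 0.179, 0.182 and 0.162, 0.112, 0.0877, 0.0750 and 0.0821 and 0.0604, 0.0730, 0.0770 and 0.0781. Days 8 and 14 did not overlap, and replicate 1 was highest in both genotypes at day 14.

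*Pcna*, the sliding clamp of DNA polymerases, fell least among the replication genes. Its RQ was 0.247, 0.201, 0.213 and 0.201 in WT OBs and 0.227, 0.251, 0.230 and 0.230 in Het OBs at day 8, and 0.223, 0.156, 0.158 and 0.171 in WT OBs and 0.155, 0.175, 0.180 and 0.181 in Het OBs at day 14. At day 21 the *Pcna* RQ was 0.194, 0.148, 0.163 and 0.154 in WT OBs and 0.175, 0.173, 0.178 and 0.179 in Het OBs. WT replicate 1 of day 14 reached into the range of day 8, and days 14 and 21 overlapped widely. The 12 replication genes had a median change of −0.59 from day 8 to day 14, between −1.12 for *Rrm2* and −0.36 for *Pcna*. *Cdc6*, a loader of the MCM helicase, fell by 0.97 and *Mcm4* by 0.84 on the log2 scale.

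Libraries of day 14 all lay below those of day 8 for 25 of the 38 genes, against 3.14% of all tested genes. Without replicate 1, 33 of the 38 fell and 4 rose (background 17.1% and 45.6%), with all 18 mitosis and all 12 replication genes again among those that fell. In WT alone 30 fell and 3 rose (background 7.36% and 23.6%), and in Het alone 31 fell and 3 rose (9.09% and 26.5%).

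The members of the G1 to S group did not move together. *Ccnd1* (cyclin D1, the partner of CDK4 and CDK6 in G1) had RQ values of 0.934, 1.10, 1.06 and 0.993 in WT at day 8, 1.74, 1.602, 1.48 and 1.61 at day 14 and 1.27, 1.58, 1.42 and 1.38 at day 21. In Het OBs the *Ccnd1* RQ was 0.836, 0.901, 0.884 and 0.852, 1.79, 0.922, 1.50 and 1.41 and 1.50, 1.42, 1.42 and 1.14. All libraries of day 14 except Het replicate 2 were above day 8, and the rise was 0.68 ± 0.095 on the log2 scale (adjusted p = 4.26e-06). *Ccnd1* overlaps the gene the annotation names *LTO1* on the other strand, which held 270657 counts over the 24 libraries, and the strand rule of the counting is not given in the sources used here, so reads of the overlap cannot be told apart.

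*Ccne1* (cyclin E1, which with CDK2 starts S phase) went the other way. The WT values of *Ccne1* were 0.0809, 0.0664, 0.0621 and 0.0713 at day 8, 0.0470, 0.0337, 0.0328 and 0.0371 at day 14 and 0.0325, 0.0242, 0.0248 and 0.0259 at day 21. Its Het values were 0.0747, 0.0799, 0.0822 and 0.0781, 0.0458, 0.0300, 0.0384 and 0.0362 and 0.0321, 0.0270, 0.0280 and 0.0315. Day 8 was above day 14 in every library, a log2 change of −0.99 ± 0.088 (adjusted p = 7.29e-09). *Ccne2* (cyclin E2) fell by 0.37 (adjusted p = 0.0157), and it also overlaps a gene on the other strand, *Ints8*.

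*E2f1*, an activator of S phase genes, was nearly level. Its RQ was 0.0523, 0.0568, 0.0550 and 0.0530 in WT OBs and 0.0493, 0.0656, 0.0701 and 0.0565 in Het OBs at day 8, and 0.0534, 0.0561, 0.0568 and 0.0551 in WT OBs and 0.0506, 0.0509, 0.0554 and 0.0529 in Het OBs at day 14. At day 21 the *E2f1* RQ was 0.0531, 0.0597, 0.0578 and 0.0560 in WT OBs and 0.0498, 0.0610, 0.0599 and 0.0552 in Het OBs. The 3 days overlapped, with a log2 difference of −0.09 ± 0.059 from day 8 to day 14 (adjusted p = 0.238). Without replicate 1 the adjusted p was 0.038 at a log2 change of −0.12.

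Among the CDK inhibitors, *Cdkn1a* and *Cdkn2a* rose. *Cdkn2a* encodes both p16, an inhibitor of CDK4 and CDK6, and ARF, which stabilizes p53, and a count per gene does not separate them. Its RQ in WT was 0.0108, 0.0239, 0.0236 and 0.0192 at day 8, 0.0300, 0.0531, 0.0516 and 0.0429 at day 14 and 0.0607, 0.0799, 0.0713 and 0.0708 at day 21. In Het the *Cdkn2a* RQ was 0.0168, 0.0210, 0.0237 and 0.0185, 0.0236, 0.0337, 0.0480 and 0.0464 and 0.0648, 0.0628, 0.0639 and 0.0646. The rise to day 14 was 1.06 ± 0.16 on the log2 scale (adjusted p = 7.38e-06), and Het replicate 1 of day 14 alone reached into the range of day 8. *Cdkn1b* (p27) had values of 0.0692, 0.0921, 0.0801 and 0.0720 in WT OBs and 0.0755, 0.0678, 0.0621 and 0.0660 in Het OBs at day 8, and 0.0746, 0.0953, 0.107 and 0.0967 in WT OBs and 0.0494, 0.0823, 0.110 and 0.0856 in Het OBs at day 14. At day 21 they were 0.0962, 0.0895, 0.0933 and 0.0962 in WT OBs and 0.0818, 0.0852, 0.0838 and 0.0728 in Het OBs. The days overlapped, and the difference of 0.27 ± 0.11 from day 8 to day 14 had an adjusted p of 0.0501. That p was 0.0438 with the replicate number as a block and 0.000116 without replicate 1. *Cdkn1a* is described with *Rcc2* below.

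From day 14 to day 21, 28 of the 38 genes fell and 1 rose, against 5.95% and 12.2% of all tested genes. The median of the 38 was −0.34, beside 0.058 over all genes. All 18 mitosis genes fell, from −0.56 ± 0.11 for *Plk1* (adjusted p = 0.00117) to −0.28 for *Foxm1*, and *Cdc20*, an activator of the anaphase ubiquitin ligase, changed by −0.53 ± 0.099 (adjusted p = 0.0007). Of the 12 replication genes 8 fell, with *Rrm2* at −0.50 ± 0.076 (adjusted p = 0.000127), and *Mcm6*, *Rrm1*, *Cdt1* and *Pcna* did not pass the test. *Ccne1* fell by 0.41 and *Rcc2* by 0.31. *Cdkn2a* was the gene that rose, by 0.70 ± 0.15 (adjusted p = 0.00244), with every library of day 21 above every library of day 14 (background 1.73%).

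Libraries of days 14 and 21 did not overlap, with day 21 lower, for 5 genes (*Ccna2*, *Mcm2*, *Rrm2*, *Cdc20* and *Cdc6*, background 0.68%). The count that fell depended on single replicates, since 16 fell when replicate 4 was left out (background not given) and 31 when replicate 1 was (background 12.3%). In WT alone 26 fell and 0 rose (background 3.58% and 5.04%). In Het alone 0 fell and 0 rose by edgeR's quasi-likelihood test (background 0.912% and 3.88%), with a median of −0.21, against −0.47 in WT. In Het 16 of the 38 had an unadjusted p under 0.05, a share that was not counted over all genes. When the difference between the genotypes was itself tested, 0 of the 38 passed, and 0.0% of all genes did. The Het change was less negative by a median of 0.23 on the log2 scale. The difference from day 8 to day 14 also gave 0 of 38 genes over all libraries (0.0592% of all genes higher and 0.0% lower). The genes that passed it without replicate 1 are given with *Rcc2* below.

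**Figure D2:**
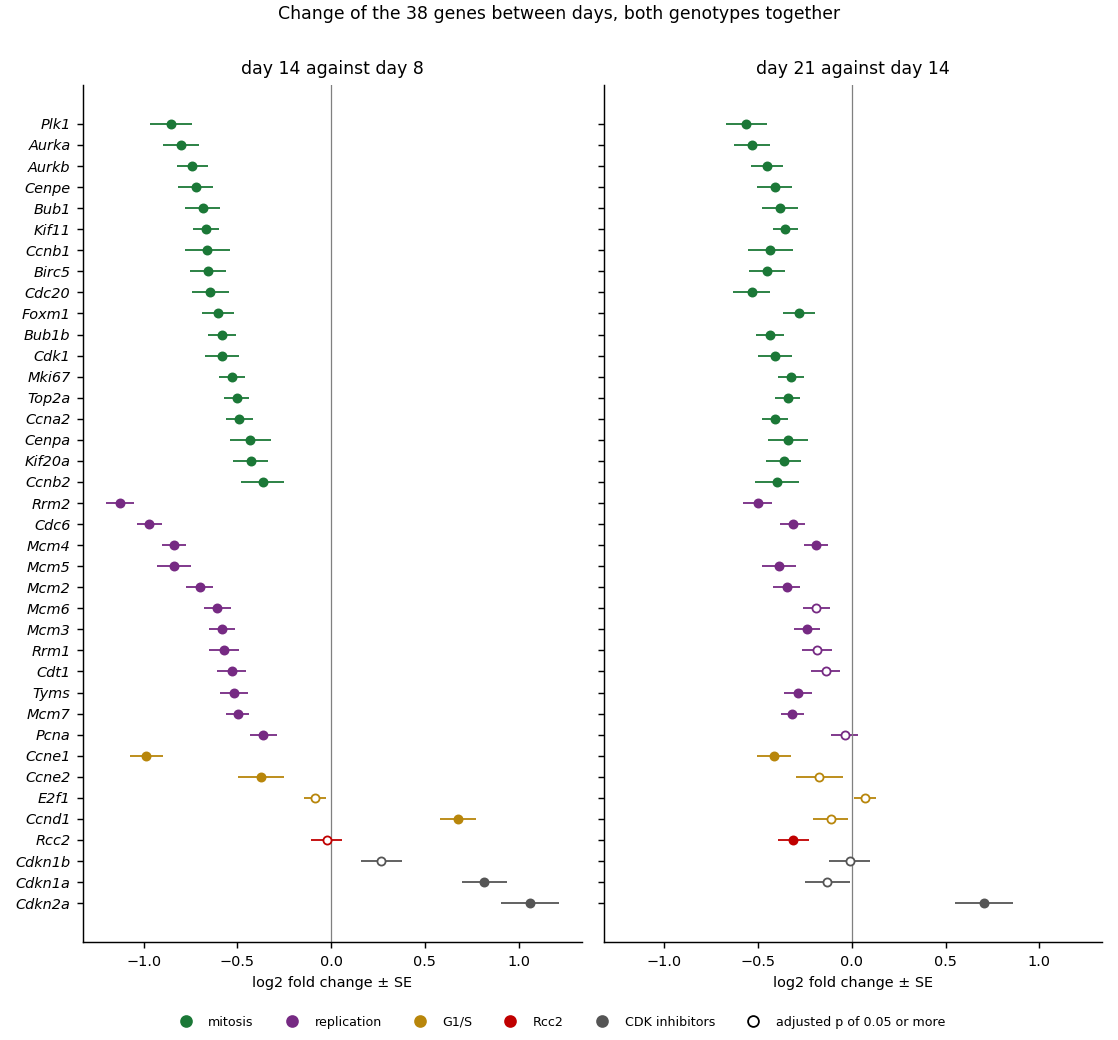
Log2 fold change ± SE (horizontal axes) of each of the 38 genes from day 8 to day 14 (left) and from day 14 to day 21 (right), both genotypes together, coloured by role. White points had an adjusted p of 0.05 or more, and the mitosis and replication genes lie left of 0 in both panels, while *Rcc2* lies at 0 on the left and at −0.31 on the right.

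Because mitosis and replication genes moved together, the sequence before their start sites was read for short elements known from cell cycle promoters. Promoters were taken from RefSeq (GRCm38.p6), 250 bases before to 50 bases after each gene's start, and 31 of the 38 genes matched a window in a table of 32851. *Ccna2*, *Ccne2*, *Ccnd1*, *Aurkb*, *Mcm4*, *Foxm1* and *Kif20a* are named only. Searched on both strands were an E2F motif (TTTCCCGC, TTTGGCGC, TTTCGCGC or TTTGCCGC), the cell cycle genes homology region or CHR, which the DREAM complex binds (TTTGAA), and the CCAAT box, which NF-Y binds (CCAAT). Forms of the E2F motif can overlap one another on opposite strands. The E2F motif stood in 6 of the 11 replication genes with a window (*Mcm3*, *Mcm5*, *Mcm6*, *Mcm7*, *Cdc6* and *Cdt1*), in 1 of 14 mitosis genes (*Cdk1*), and in 2.26% of all windows. The CHR letters stood in 10 of the 14 mitosis genes and 1 of the 11 replication genes (*Mcm2*), against 17.9% of all windows. CCAAT stood in 13 of the 14 mitosis genes and 8 of the 11 replication genes, against 37.4%. Both CHR and CCAAT stood in 10 of 14 mitosis genes, against 6.95% of all windows. Restricted to the 12627 tested genes with a window, the shares were 4.31% for E2F, 14.8% for CHR, 42.2% for CCAAT and 6.01% for CHR with CCAAT. These matches describe letters and not bound sites.

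The 250 bases before the start are shown for a pair of replication genes with the E2F motif, *Mcm5* (chr8:75109259-75109508, + strand) and *Mcm6* (chr1:128359706-128359955, − strand), for *Cdk1*, which held all 3 motifs (chr10:69352913-69353162, − strand), for the mitosis genes *Ccnb2* (chr9:70421555-70421804, − strand) and *Cdc20* (chr4:118437344-118437593, − strand), and for *Rcc2* (chr4:140701223-140701472, + strand). Each runs 5′ to 3′ toward the gene, with the motifs in capitals.
Mcm5: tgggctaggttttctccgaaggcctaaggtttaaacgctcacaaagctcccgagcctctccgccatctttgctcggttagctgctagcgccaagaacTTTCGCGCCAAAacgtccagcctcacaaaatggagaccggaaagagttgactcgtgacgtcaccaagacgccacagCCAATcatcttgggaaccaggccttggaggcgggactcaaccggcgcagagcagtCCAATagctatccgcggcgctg
Mcm6: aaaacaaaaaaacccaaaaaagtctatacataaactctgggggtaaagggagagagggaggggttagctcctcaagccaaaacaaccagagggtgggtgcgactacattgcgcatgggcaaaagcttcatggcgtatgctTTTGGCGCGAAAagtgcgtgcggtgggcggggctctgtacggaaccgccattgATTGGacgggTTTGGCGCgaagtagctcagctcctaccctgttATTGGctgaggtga
Cdk1: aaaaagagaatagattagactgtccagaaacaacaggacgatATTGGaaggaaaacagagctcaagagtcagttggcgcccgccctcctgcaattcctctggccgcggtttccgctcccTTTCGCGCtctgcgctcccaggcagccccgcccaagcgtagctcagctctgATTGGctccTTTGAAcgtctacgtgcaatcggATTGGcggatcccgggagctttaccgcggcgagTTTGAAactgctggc
Ccnb2: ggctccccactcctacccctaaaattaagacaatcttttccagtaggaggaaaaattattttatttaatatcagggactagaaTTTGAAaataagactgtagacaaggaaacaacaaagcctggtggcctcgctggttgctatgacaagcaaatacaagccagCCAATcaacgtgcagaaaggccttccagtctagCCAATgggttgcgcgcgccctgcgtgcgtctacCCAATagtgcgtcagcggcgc
Cdc20: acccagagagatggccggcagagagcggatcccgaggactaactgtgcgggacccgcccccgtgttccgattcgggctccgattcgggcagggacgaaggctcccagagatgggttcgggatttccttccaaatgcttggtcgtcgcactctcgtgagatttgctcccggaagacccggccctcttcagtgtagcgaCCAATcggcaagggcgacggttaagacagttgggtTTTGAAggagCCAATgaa
Rcc2: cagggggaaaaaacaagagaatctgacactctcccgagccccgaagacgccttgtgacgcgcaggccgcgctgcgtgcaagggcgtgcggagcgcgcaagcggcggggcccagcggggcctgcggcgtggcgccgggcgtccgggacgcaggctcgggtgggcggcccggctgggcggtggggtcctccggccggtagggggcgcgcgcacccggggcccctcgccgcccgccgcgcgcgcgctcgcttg
The *Rcc2* window held none of the motifs, as did those of *Ccne1*, *E2f1*, *Cdkn1a*, *Birc5* and *Tyms*. For *Rcc2* the GENCODE gene (chr4:140700541-140723220) begins upstream of the RefSeq start used here, so these letters lie within its annotated span. The GENCODE genes of *Cdk1* (to chr10:69352938) and *Cdc20* (to chr4:118437352) also reach into the last bases of their windows. Those bases hold the CHR nearest the start in *Cdk1* and the CCAAT nearest the start in *Cdc20*.

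The second question was whether Het OBs differed from WT in these genes. At day 8, 0 of the 38 genes rose and 0 fell in Het by edgeR's quasi-likelihood test (background 0.325% higher and 0.315% lower). An unadjusted p under 0.05 was reached by 0 of the 38, a share that was not counted over all genes. The estimates were positive for 33 of the 38, with a median of 0.12 beside −0.0712 over all genes. *Ccnd1* was the gene without overlap, with all 4 Het libraries (0.836 to 0.901) below all 4 WT libraries (0.934 to 1.10), against 3.49% of all genes without overlap in that direction. Its difference of −0.24 ± 0.13 had an adjusted p of 0.591.

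The result at day 8 depended on replicate 1. Without it, 17 genes rose in Het and 1, *Cdkn1b*, fell (background 4.13% and 13.2%), and the median of the 38 was 0.19. *Mcm5* rose by 0.31 ± 0.062 (adjusted p = 0.00296), *Birc5* (survivin, of the chromosomal passenger complex) by 0.26 ± 0.054 (adjusted p = 0.00424) and *Mcm6* by 0.25 ± 0.052 (adjusted p = 0.00384). *Cdkn1b* fell by 0.32 (adjusted p = 0.0411), a call that TMM scaling removed. Among replicates 2 to 4 all Het libraries lay above all WT libraries for 24 genes (background 8.63%) and below for 2 (29.1%). With TMM or total count scaling 30 rose and 0 fell (TMM background 7.94% and 4.98%). With 1 more replicate left out, 0 rose without replicate 2, 0 without replicate 3 and 10 without replicate 4 (background not given).

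At day 14, 1 of the 38 genes, *Rcc2*, rose in Het and 0 fell (background 1.96% and 1.54%), and 4 genes had an unadjusted p under 0.05. The median was −0.04 on the housekeeping scale, beside −0.0836 over all genes, and 0.04 under TMM. At day 21, *Rcc2* was again the single gene that rose and 0 fell (background 0.675% and 0.271%), with 8 genes at an unadjusted p under 0.05. The share of all genes at an unadjusted p under 0.05 was not counted at either day. The estimates at day 21 were positive for 33 of the 38, with a median of 0.19 beside −0.0115 over all genes. Het libraries did not overlap WT at day 21 for *Mcm7*, *Rcc2* and *Cdkn1a*, which were higher (background 7.21%), and for *Cdkn1b*, which was lower (4.49%). *Mcm7* had a difference of 0.28 ± 0.088 (adjusted p = 0.128).

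*Rcc2* encodes a protein of the RCC1 family that sits at centromeres and the spindle midzone in mitosis, and its Het difference was the largest of the 38 at days 14 and 21. In WT OBs its RQ was 0.200, 0.247, 0.249 and 0.229 at day 8, 0.199, 0.187, 0.176 and 0.190 at day 14 and 0.119, 0.151, 0.146 and 0.135 at day 21. In Het OBs the *Rcc2* RQ was 0.193, 0.246, 0.251 and 0.233 at day 8, 0.220, 0.274, 0.302 and 0.300 at day 14 and 0.188, 0.268, 0.255 and 0.257 at day 21. The genotypes overlapped at day 8, and at days 14 and 21 each Het library was above each WT library of its day, as for *Cdkn1a* (background 2.17% at day 14). At day 8 the Het mean was 0.230 ± 0.0262 and the WT mean 0.231 ± 0.0225 (SD, n = 4), and the 2-sided exact permutation p was 0.943. At day 14 it was 0.274 ± 0.0385 in Het and 0.188 ± 0.00924 in WT, and at day 21 it was 0.242 ± 0.0363 and 0.138 ± 0.0143, ratios of 1.46 and 1.76. The exact permutation p was 0.0286 at either day, and 4 against 4 libraries can give none smaller.

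In the fit across all genes the Het difference of *Rcc2* was 0.55 ± 0.12 at day 14 (adjusted p = 0.019) and 0.81 ± 0.12 at day 21 (adjusted p = 0.00152). Either call was lost when replicate 2, 3 or 4 was left out, with adjusted p-values between 0.171 and 0.39 at day 14 and between 0.0771 and 0.284 at day 21, and neither was lost without replicate 1 (8.32e-07 and 1.4e-07). The estimates without those replicates were 0.465 to 0.544 at day 14 and 0.77 to 0.81 at day 21. With days 14 and 21 together the Het mean was 0.258 ± 0.0387 and the WT mean 0.163 ± 0.0290 (SD, n = 8), a ratio of 1.58. The 2-sided exact permutation p was 0.000466, where the smallest possible was 0.000155. The matching log2 difference was 0.68 ± 0.083 (adjusted p = 3.71e-05), and it stayed past the threshold without any one replicate (adjusted p of 1.87e-09 to 0.0214). Both tests treat the libraries of days 14 and 21 as independent. Same-numbered libraries of a genotype deviated together between days (median correlation 0.433, 24 pairs), so either p may be too small. *Rcc2* had been named by the study as a cell cycle marker in cultured OBs at these days, so the tests are not independent of that result.

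The next largest Het difference over days 14 and 21 among the 38 was 0.42 for *Cdkn1a*, and the lowest was −0.36 for *Ccne2*. Among all 20287 genes *Rcc2* ranked 884 from the top by size of the estimate. At day 8 the *Rcc2* difference was −0.0049 ± 0.12 (adjusted p = 0.998), with a sign that turned without replicate 1 (0.01) and under the other scalings (0.03 to 0.10). The difference between the Het effect of days 14 and 21 and that of day 8 was 0.68 ± 0.14, with an adjusted p of 0.0551, and 0 of the 38 passed (background 0.173% higher and 0.00493% lower). It was 0.00294 with the replicate number as a block and 1e-05 without replicate 1. No other of the 38 genes passed in the blocked fit, where 0.306% of all genes were called higher.

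*Rcc2* was not among the genes that fell from day 8 to day 14. Its change was −0.02 ± 0.083 over both genotypes (adjusted p = 0.848), and it was positive without replicate 2 or 3 (0.01). In WT alone the change was −0.30 ± 0.12 (adjusted p = 0.0568) and in Het alone 0.25 ± 0.12 (adjusted p = 0.103). The Het change minus the WT change was 0.55 ± 0.17 (adjusted p = 0.607), and without replicate 1 it was 0.66 ± 0.083 (adjusted p = 0.000242, background 3.69%). Without replicate 1 this difference also passed, in the other direction, for *Cdc6* (−0.41 ± 0.091, adjusted p = 0.017) and *Mcm4* (−0.33 ± 0.079, adjusted p = 0.0269), against 0.488% of all genes. From day 14 to day 21 *Rcc2* fell by 0.31 ± 0.083 (adjusted p = 0.0109), and in WT alone by 0.44 ± 0.12 (adjusted p = 0.0213), with all 4 WT libraries of day 21 below the 4 of day 14. The share of all genes without such overlap in WT alone was not counted. In Het alone the change was −0.18 ± 0.12 (adjusted p = 0.444), and the Het libraries of the 2 days overlapped.

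The size of the *Rcc2* difference varied with the replicate. Within replicate 1, the Het to WT ratio was 0.964 at day 8, 1.11 at day 14 and 1.58 at day 21. Within replicates 2 to 4 it was 1.01, 1.58 and 1.80. Over days 14 and 21 the Het effect of *Rcc2* in replicate 1 was lower than that in replicates 2 to 4 by 0.35 ± 0.085 on the log2 scale (adjusted p = 0.0107), and at day 8 by 0.06 ± 0.12 (adjusted p = 0.881). A small RNA gene, *Gm25951*, overlaps exons of *Rcc2* on the same strand and held 7552 counts over the 24 libraries.

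*Cdkn1a* encodes p21, the CDK inhibitor that p53 induces (chr17:29090976-29100727, GRCm38). Its RQ in WT was 0.765, 0.429, 0.402 and 0.491 at day 8, 0.879, 0.794, 0.731 and 0.807 at day 14 and 0.707, 0.704, 0.686 and 0.666 at day 21. In Het the *Cdkn1a* RQ was 0.718, 0.368, 0.423 and 0.497 at day 8, 0.956, 1.09, 1.02 and 0.977 at day 14 and 0.957, 1.000, 0.975 and 0.994 at day 21. Replicate 1 was the highest library of both genotypes at day 8, by a wide gap. The gene rose from day 8 to day 14 by 0.82 ± 0.12 (adjusted p = 9.29e-06), and by 0.62 in WT alone and 1.01 in Het alone.

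Over days 14 and 21 all 8 Het libraries of *Cdkn1a* (0.956 to 1.09) were above all 8 WT libraries (0.666 to 0.879), against 0.389% of all genes without overlap in that direction. The Het difference of *Cdkn1a* was 0.42 ± 0.12 (adjusted p = 0.0236). The call was lost without replicate 2, 3 or 4 (0.137 to 0.256) at estimates of 0.40 to 0.42. By single days it was 0.33 ± 0.17 at day 14 (adjusted p = 0.264) and 0.51 ± 0.17 at day 21 (adjusted p = 0.155, and 0.051 with the replicate block). The Het to WT ratio was 0.938, 1.09 and 1.35 at days 8, 14 and 21 within replicate 1 and 0.974, 1.33 and 1.44 within replicates 2 to 4. *Cdkn1a* and *Rcc2* were the genes of the 38 that rose over days 14 and 21 (background 7.22%).

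One gene fell over days 14 and 21, *Ccne2* (background 8.05%). Its WT values were 0.0523, 0.0437, 0.0496 and 0.0473 at day 14 and 0.0580, 0.0327, 0.0384 and 0.0389 at day 21, and its Het values were 0.0235, 0.0317, 0.0496 and 0.0401 and 0.0363, 0.0323, 0.0324 and 0.0320. The groups overlapped, and replicate 1 held the widest gap between the genotypes at both days. The difference was −0.36 ± 0.12 (adjusted p = 0.0496), and it missed the threshold without any one replicate and under every other scaling tried, with −0.19 (adjusted p = 0.122) without replicate 1. Reads of the overlapping *Ints8* cannot be told apart here.

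Replicate 1 and replicates 2 to 4 went apart in most mitosis genes. Within replicate 1, the Het to WT ratio was below 1 for 31 of the 38 genes at day 8, 35 at day 14 and 32 at day 21. Within replicates 2 to 4 it was above 1 for 33, 23 and 34 genes at these days. *Ccnb1* at day 21 was the widest case of the 38 at that day. Het replicate 1 (0.0550) was below WT replicate 1 (0.0829), while Het replicates 2 to 4 (0.0685 to 0.0799) were all above WT replicates 2 to 4 (0.0521 to 0.0608). The share of all genes with a ratio below 1 was not counted. Over all genes the median Het effect in replicate 1 minus that in replicates 2 to 4 was 0.113 at day 8 (log2 scale). It was −0.211 at day 14 and 0.107 at day 21. A lower Het effect in replicate 1 at day 14 was thus not particular to the 38.

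**Figure D3:**
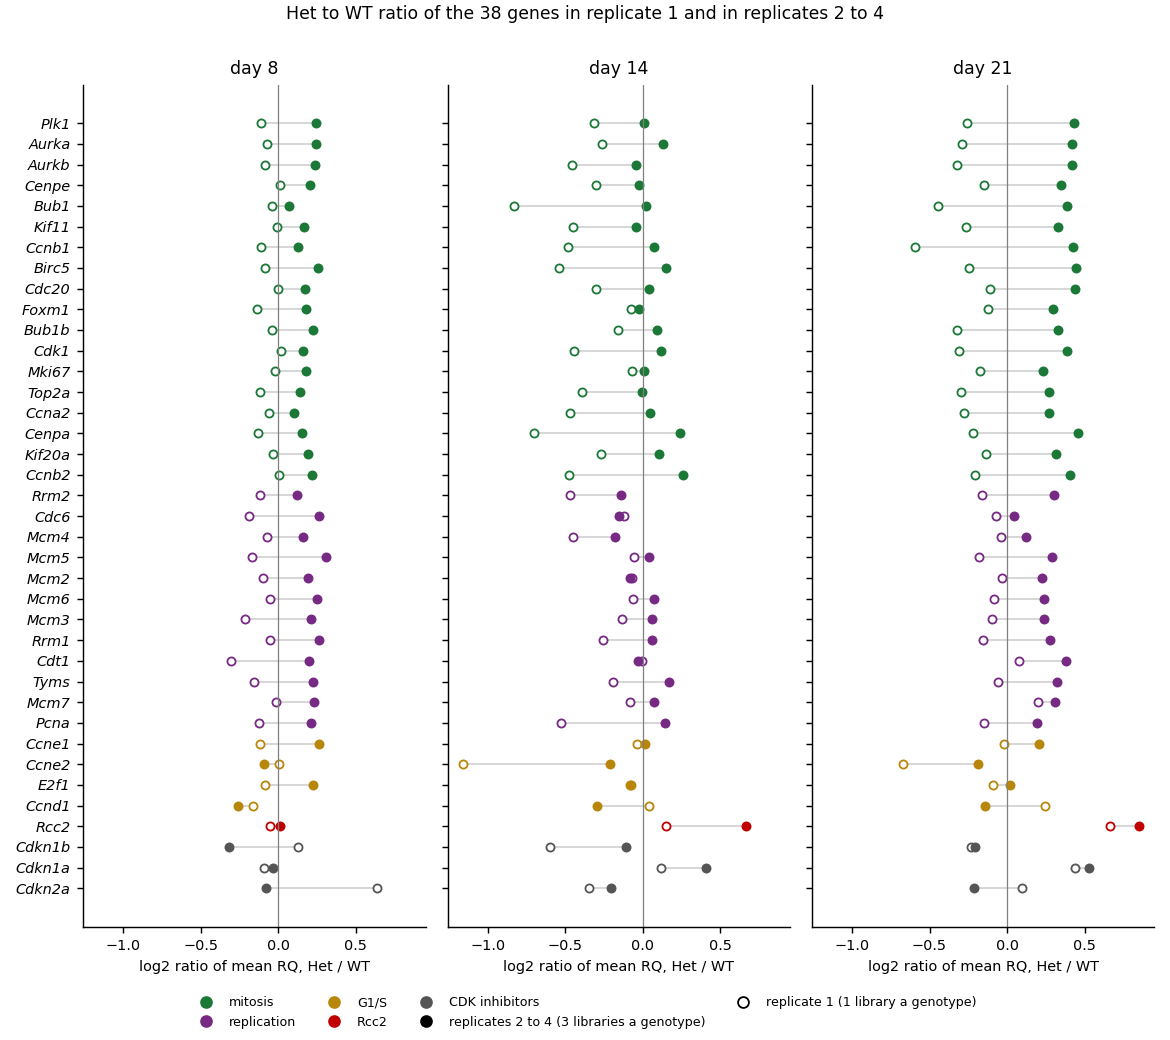
Log2 of the Het to WT ratio of mean RQ (horizontal axes) for each of the 38 genes at days 8, 14 and 21, coloured by role. White points are replicate 1 (1 library a genotype), filled points are replicates 2 to 4 (3 libraries a genotype), and at day 21 white points lie left of 0 for 32 genes and filled points right of 0 for 34.

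The difference between replicate 1 and replicates 2 to 4 in the Het effect was tested in the fit across all genes, where the lone library of replicate 1 in each group was assumed to vary like the others. Over days 14 and 21, 22 of the 38 genes had a lower Het effect in replicate 1 and 0 a higher one (background 9.04% and 4.48%). They were 16 of the 18 mitosis genes, 4 of the 12 replication genes (*Pcna*, *Rrm2*, *Rrm1* and *Tyms*), *Ccne2* and *Rcc2*. The largest were *Bub1* (−0.84 ± 0.12, adjusted p = 0.000539), the centromeric histone gene *Cenpa* (−0.81 ± 0.10, adjusted p = 0.000267) and *Ccnb1* (−0.78 ± 0.12, adjusted p = 0.000798). *Mki67* (−0.24, adjusted p = 0.166) and *Foxm1* (−0.23, adjusted p = 0.207) were the mitosis genes that did not pass, and *Cdkn1a* did not either (−0.19, adjusted p = 0.368). By single days the count was 0 at day 8 (background 0.0197% higher and 0.00493% lower), 12 lower and 0 higher at day 14 (13.8% and 1.92%) and 2 lower and 0 higher at day 21 (0.0641% and 0.0542%).

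Without replicate 1, 30 of the 38 genes rose in Het at day 21 and 0 fell (background 10.7% and 13.5%), and the median was 0.31 beside −0.0422 over all genes. All 18 mitosis genes rose, by a median of 0.39, with *Cenpa* at 0.46 ± 0.068 (adjusted p = 0.000191), *Birc5* at 0.44 ± 0.056 (adjusted p = 5.71e-05) and *Mki67* at 0.23 ± 0.078 (adjusted p = 0.0383). Of the 12 replication genes 10 rose, by a median of 0.26 over the 12, and *Mcm4* and *Cdc6* did not pass. *Rcc2* rose by 0.85 and *Cdkn1a* by 0.53. In 32 genes all 3 Het libraries were above all 3 WT libraries (background 18.2%), and in 3 below (25.6%).

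At day 14 without replicate 1, 3 genes rose (*Rcc2* by 0.66, *Cdkn1a* by 0.41 and *Cenpa* by 0.24) and *Mcm4* fell by 0.17, against 14.3% and 14.7% of all genes. *Mcm4* also passed with the replicate block over all libraries (−0.26, adjusted p = 0.0397, background 5.36%). With both days and without replicate 1, 25 genes rose, 16 of the mitosis and 7 of the replication genes among them, and 0 fell (background 18.3% and 23.5%). In replicates 2 to 4 the Het effect of days 14 and 21 minus that of day 8 was higher for *Rcc2* (0.75) and *Cdkn1a* (0.51) and lower for *Cdc6* (−0.31, adjusted p = 0.0288), with background shares of 3.92% and 0.798%.

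Genes of the same pathways that were not among the 38 were counted from lists chosen by function. Of 30 other replication genes, 30 fell from day 8 to day 14, led by *Orc1*, of the origin recognition complex (−0.95), and 13 fell from day 14 to day 21 (background 13.6% and 5.95%). Of 30 other mitosis genes, 29 fell and 1 rose (*Pttg1*, securin, by 0.25), and then 25 fell. In Het against WT over days 14 and 21, 1 of the 30 other replication genes fell (*Slbp*, the histone mRNA binding protein, −0.14) and 0 of the 30 other mitosis genes changed (background 7.22% higher and 8.05% lower). Without replicate 1, 22 of the 30 other mitosis genes and 10 of the 30 other replication genes rose in Het at day 21 and 0 fell (background 10.7% and 13.5%). At day 14 without replicate 1 the counts that rose were 1 and 2 (14.3%), and at day 8 they were 8 and 12 (4.13%).

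Of 18 regulators of the DREAM, RB and E2F families, 3 rose from day 8 to day 14 and 8 fell (background 34.3% and 13.6%). The retinoblastoma gene *Rb1* (0.62), its relative *Rbl2* (0.49) and *E2f5* (0.36) rose, and the repressor *E2f7* (−1.22), *E2f8* (−0.84) and *Mybl2* (−0.84) were among those that fell. Of 13 G1 cyclins, CDKs and other CDK inhibitors 1 rose and 4 fell, among them *Cdk2* (−0.46) and *Cdkn2c*, which encodes p18 (−0.40). From day 14 to day 21 the first list had 2 genes higher and 4 lower, and the second 0 higher and 6 lower (background 12.2% and 5.95%). In Het over days 14 and 21 *E2f4* (0.18) and *Cdk6* (0.34) rose, and 0 genes of either list fell (background 7.22% and 8.05%), so that 1 of 18 and 1 of 13 rose.

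A list of 19 p53 targets was read beside *Cdkn1a*. From day 8 to day 14, 4 rose, with *Pmaip1* (1.07) and *Bbc3* (0.59), both of the BCL2 family, in front, and 7 fell, with *Perp*, a desmosome gene, at −2.17 (background 34.3% and 13.6%). From day 14 to day 21, 1 rose and 1 fell (12.2% and 5.95%). In Het over days 14 and 21, *Pmaip1* (0.70) and *Sesn2* (0.32), a stress-induced sestrin, rose and 0 fell (7.22% and 8.05%). Without replicate 1, 3 of the 19 rose and 0 fell, against 18.3% and 23.5% of all genes.

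Markers of the cells in these cultures moved with the days and genotypes. Summed over 8 OB markers, RQ was 17.4 to 48.1 at day 8, 95.9 to 182 at day 14 and 114 to 187 at day 21. All 8 rose from day 8 to day 14 (background 34.3%). Summed over 10 macrophage markers, RQ in replicates 2 to 4 was 0.229 to 0.282 in WT and 0.727 to 1.01 in Het at day 8, 1.33 to 2.26 and 6.47 to 7.07 at day 14, and 5.63 to 6.59 and 10.7 to 17.3 at day 21. In replicate 1 it was 0.462 in WT and 0.389 in Het at day 8, 4.24 and 2.92 at day 14, and 5.73 and 7.40 at day 21. Among replicates 2 to 4 all 10 rose in Het at day 8, day 14 and day 21, and of the 18 mitosis genes 6 rose at day 8, 1 (*Cenpa*) at day 14 and all 18 at day 21. Of the 12 replication genes 9, 0 and 10 rose at these days. The shares of all genes that rose in Het without replicate 1 were 4.13% at day 8, 14.3% at day 14 and 10.7% at day 21. At day 14 the mitosis and replication genes were thus called no more often than all genes.

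Summed over 6 chondrocyte markers, RQ in replicates 2 to 4 was 20.5 to 25.5 in WT and 5.50 to 16.9 in Het at day 8, 6.33 to 13.3 and 1.41 to 2.58 at day 14, and 3.51 to 5.75 and 1.16 to 1.39 at day 21. In replicate 1 the genotypes were close, at 34.6 and 33.4, 22.2 and 23.1, and 8.06 and 8.02. The OB markers in replicates 2 to 4 were 175 to 187 in WT and 114 to 149 in Het at day 21. Over all libraries the summed RQ was 0.348 to 1.09 for 8 osteoclast markers and 3.80 to 7.77 for 5 smooth muscle markers, and at most 0.00513 for 6 endothelial markers, 0.0182 for 5 adipocyte markers and 0.0679 for 4 fibroblast markers. Within the endothelial list *Cdh5*, *Tek*, *Emcn* and *Tie1* had medians under 10 counts, as did *Adipoq*, *Plin1*, *Cidec* and *Lep* of the adipocyte list, *Clec3b* and *Pi16* of the fibroblast list and *Calcr* and *Dcstamp* of the osteoclast list. The part of any of these cells in the changes of the 38 genes was not tested.

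**Figure D4:**
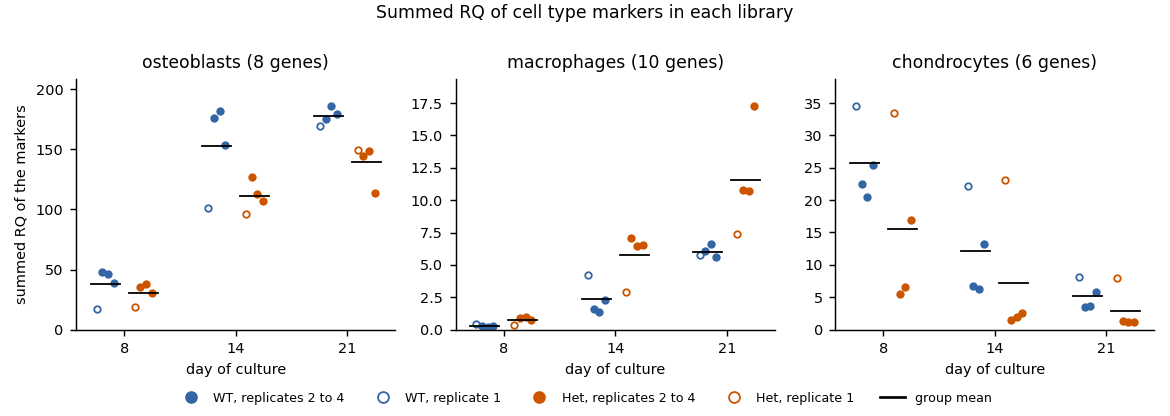
Summed RQ (vertical axes, linear, from 0) of 8 OB, 10 macrophage and 6 chondrocyte markers against day of culture, 1 point for each library, blue for WT and orange for Het, open for replicate 1, with the mean of 4 libraries as a bar. The filled orange points of macrophages lie above the filled blue ones at each day, while the open points of chondrocytes nearly coincide.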

How the data were processed

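Raw read counts for each gene were deposited by the authors, 1 file for each of 24 libraries, with no normalization. Polyadenylated RNA had been made into Illumina TruSeq libraries. The submitters' processing notes name cutadapt 2.5, STAR 2.73a, Subread, featureCounts 1.6.4 and mm10, without roles. Whether counting used strand, and what was done with reads of several matches, is not given in the sources used here. Besides *Ccnd1*, *Ccne2* and *Mcm7*, exons of *Ccna2*, *Cdc20* and *Kif20a* overlap genes on the other strand (*Exosc9*, *Elovl1* and *Cdc23*). Identifiers with the same version were found in GENCODE release M21 (GRCm38) for 54587 of 55335 genes, which gave coordinates, lengths and overlaps. Totals were 17140202 to 59734231 counts per library, with no molecular identifiers, so low counts carry counting error and duplicates alike. Processed pseudogenes counted apart, such as *Ccnb2-ps* (1717 counts over all libraries) and *Pcna-ps2* (769), can share reads with their parents.

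Counts of all genes were tested in edgeR 4.0.16 (R 4.3.3) with glmQLFit and glmQLFTest on 6 group means (genotype by day), filterByExpr, the geometric mean of *Actg1*, *Actb*, *Mrfap1* and *Sdha* in place of the library size, and Benjamini-Hochberg adjustment at 0.05. *Rcc2* was also tested on RQ with 2-sided exact permutation tests (scipy 1.17.1). Alternatives were TMM, DESeq2 1.42.0 size factors and Wald test, the total count, *Mrfap1* and *Sdha* alone, no filter, only the groups compared, each replicate left out, the replicate number as a block and replicate 1 against the others as a term. The tests of replicate 1 against replicates 2 to 4, all alternatives within replicates 2 to 4 and the difference between the genotypes' changes over time were added after the values were seen. The members and lists were chosen with earlier results of these data known. Named genes are the 38, with values in every library for 16 of them and for *Ccne2* (added after its values were seen), members past the threshold by size of change, and a few examples from the pathway lists chosen after their values were seen. The script was checked on simulated counts.

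Same-numbered WT and Het libraries of a day deviated together over 14889 genes (correlation of deviations from group means 0.195 to 0.713, median 0.506, 12 pairs, and a median of −0.123 in the 36 pairs whose numbers differ), so blocked values stand beside a genotype result where they change a call. Same-numbered libraries of a genotype on different days also deviated together (median 0.433, 24 pairs, and −0.0874 in the 72 pairs whose numbers differ). The numbers come from the labels. No 2 replicates agreed within sampling noise (chi-square per degree of freedom at least 5.14 in 36 pairs).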

Additional observations from a re-analysis of the deposited data

Results flagged for a closer look

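In 7 of the 96 sets of 4 libraries examined (16 genes in 6 groups), 1 library stood far from the other 3 by Dixon's criterion, which chance meets in about 1 set in 20. Replicate 1 was that library in 5 of the 7 sets. The *Cdk1* RQ was 0.129 in WT replicate 1 of day 21, against 0.0905 to 0.0966 in the other 3, and 0.163 in Het replicate 2 of day 14, against 0.136 to 0.138. The *Ccnb1* RQ was 0.193 in WT replicate 1 of day 8, against 0.120 to 0.124. The *Mcm2* RQ was 0.113 in WT replicate 1 of day 14, against 0.0824 to 0.0875, and the *Mcm5* RQ was 0.173 in WT replicate 1 of day 8, against 0.139 to 0.142. The *Pcna* RQ was 0.251 in Het replicate 2 of day 8, against 0.227 to 0.230. The *Rcc2* RQ was 0.188 in Het replicate 1 of day 21, against 0.255 to 0.268, and it was still above the 4 WT libraries of that day. The causes were not tested.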

How the results depend on the processing

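From day 8 to day 14 the number of the 38 genes that fell was 30 to 34 over the alternatives, and the falls that lost the threshold were those of *Ccnb2* (without replicate 4, in WT alone and in Het alone) and *Ccne2* (without replicate 2 or 4 and in WT alone). The *Rcc2* ratio over days 14 and 21 kept its side of the threshold in the alternatives run, at 1.54 to 1.70 (1.65 under TMM, 1.70 by total count), and was 1.46 at day 14 alone and 1.76 at day 21 alone. For the ratio with the replicate number as a block the exact permutation p was 0.00781, the smallest it can give. From day 14 to day 21 the number of genes that fell was 16 to 31 with 1 replicate left out and 0 in Het alone, and 0 rose in WT alone and 0 in Het alone. In Het against WT at day 8, leaving out 1 replicate gave 0 to 17 higher and 0 to 1 lower. At day 14 it gave 0 to 3 higher and 0 to 1 lower, only the groups compared gave 0 higher, and the replicate block and replicate 1 as a term each gave 1 lower. At day 21 it gave 0 to 30 higher. TMM, DESeq2's size factors and DESeq2's Wald test gave 2 higher there, and the total count, replicate 1 as a term and only the groups compared gave 3. Over days 14 and 21, leaving out 1 replicate gave 1 to 25 higher, the total count 4 higher, and 0 were lower by the total count, TMM, DESeq2's size factors, *Mrfap1* and *Sdha* alone, no filter, only the groups compared and each replicate left out. For the difference between these days and day 8, *Mrfap1* and *Sdha* alone, DESeq2's Wald test, the replicate block and replicate 1 as a term each gave 1 higher, and leaving out 1 replicate 0 to 2 higher and 0 to 1 lower. Unless a background is printed above, the share of all genes under a setting is not given, so such counts compare settings only.

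Among replicates 2 to 4 at day 8, TMM and the total count gave 30 higher and 0 lower, *Mrfap1* and *Sdha* alone 0 lower, and leaving out 1 more replicate 0 to 10 higher and 0 to 1 lower. At day 14 TMM gave 6, the total count 10 and DESeq2's Wald test 6 higher, TMM and the total count 0 lower, and leaving out 1 more 2 to 3 higher and 0 lower. Over days 14 and 21, leaving out 1 more gave 17 to 23 higher and 0 to 1 lower. Apart from TMM at day 8, shares of all genes are not given for these settings. On the housekeeping scale without replicate 1, 14.3% of all genes rose at day 14 and 18.3% over days 14 and 21. The *Rcc2* change from day 8 to day 14 was −0.061 to 0.0097 with 1 replicate left out, positive without replicate 2 or 3, and 0.25 in Het alone. Its Het difference at day 8 was −0.014 to 0.0083 with 1 left out, positive without replicate 1, and 0.089 under TMM, 0.099 with DESeq2's size factors, 0.095 by total count and 0.032 with *Mrfap1* and *Sdha* alone. For single genes, 963 values kept direction and side of the threshold, 88 lost the threshold, 6 gained it and 8 turned. The block changed no other call of a genotype comparison than those given. The causes were not tested. Replicate 1 is a lone library in each group, so its own effects carry no replicate error.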
